A study of Mus musculus with 12 samples.

Results

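A set of 10 proteins reported to bind ARF was followed through RNAseq and ribosome profiling of mouse embryonic fibroblasts (MEFs) with and without *Arf*. Their genes are *Npm1*, *Ubtf*, *Ttf1*, *Drosha*, *Ddx5*, *E2f1*, *Myc*, *Huwe1*, *Ctbp1* and *Ctbp2*. The rule lists them by name and uses no measured value, although the list was drawn up with earlier results of these data known, and all 10 were found among the 20661 genes of the count files. The series holds 12 libraries, with 2 replicates of each assay in each of 3 groups. WT-shSCR MEFs were wild-type cells transduced with a lentiviral scrambled short hairpin RNA, WT-shARF MEFs were wild-type cells transduced with a hairpin against ARF, and *Arf*-/--shSCR MEFs were knockout cells transduced with the scrambled hairpin. All cells were embryonic fibroblasts at passage 4, and all carried an integrated hairpin vector and had been selected with puromycin. For the wild-type cells the labels name C57BL/6J mice and the study's methods B6129SF2/J mice. The knockout cells came from B6.129X1-Cdkn2atm1Cjs/KaiJ mice, so genotype and strain of origin cannot be told apart. In that allele a neo cassette takes the place of the ARF-specific first exon of *Cdkn2a*, and the exons of INK4A are left. The sources used here do not say whether replicates came from separate embryos or cultures, so p-values measure the spread between these libraries, which may be technical.

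ARF is a small, basic, mostly nucleolar protein made from an alternative reading frame of *Cdkn2a*. Its best known action is to bind MDM2 and so relieve p53 of degradation, but it also binds proteins that act apart from p53. NPM1 holds ARF in the nucleolus. UBTF and TTF1 act in transcription of the ribosomal RNA genes, and DROSHA and its helicase DDX5 in RNA maturation. ARF also restrains the transcription factors E2F1 and MYC, blocks the ubiquitin ligase HUWE1, and binds the corepressors CTBP1 and CTBP2. The measurements below show whether the mRNAs of these proteins, and the ribosomes on them, differed between the groups. They say nothing of binding, protein level or localization.

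*Cdkn2a* itself was read first as a check of the labels. Its RNA was 45.06 and 42.16 CPM (normalized counts, from TMM-scaled library sizes) in the WT-shSCR replicates, 647.7 and 672 CPM in the replicates labelled WT-shARF, and 27.83 and 32.39 CPM in *Arf*-/--shSCR. The libraries labelled WT-shARF were therefore far above the controls, 3.91 higher on the log2 scale (adjusted p = 5.57e-18 by the Benjamini-Hochberg method from edgeR, as for every adjusted p below unless DESeq2 is named). This rise in counts is opposite to the knockdown that the label names. The study reported knockdown of ARF by immunoblot, and why counts and immunoblot differ was not tested. *Mdm2*, a p53 target gene, was lower in WT-shARF and in the knockout. Its log2 fold changes in that order were -0.74 and -1.16 in RNA and -0.71 and -1.35 in footprints. Counts per gene do not separate ARF from INK4A, whose exons the knockout keeps, so the knockout libraries are checked only in part. Every direction given below for WT-shARF rests on the label. Depth was 1578627 to 3989908 reads on genes per RNAseq library and 2544319 to 5157572 per ribosome profiling library. Fibroblast markers summed to 21450 to 24910 CPM of RNA in WT-shSCR, 22260 to 22430 CPM in WT-shARF and 16330 to 17570 CPM in *Arf*-/--shSCR. In footprints they summed to 46960 to 49560, 52820 to 54340 and 36710 to 36820 CPM, so the knockout sums were lowest in both assays. The single markers went in both directions. In *Arf*-/--shSCR against WT-shSCR, 2 of 9 tested were called higher and 1 lower in RNA. In footprints 4 of 10 were called higher and 3 lower. A list of 12 macrophage markers was present as well and fell across the groups. It summed to 555.8 to 591.6 CPM of RNA in WT-shSCR, 203.8 to 272.3 CPM in WT-shARF and 52.36 to 80.75 CPM in *Arf*-/--shSCR, where *Tlr8* had no RNA read. In footprints it summed to 695 to 703, 232 to 274.9 and 49.95 to 64.93 CPM in the same order. Epithelial and mesothelial markers summed to 97.31 to 97.95 CPM of RNA in WT-shSCR, 58.78 to 69.51 CPM in WT-shARF and 165.9 to 186.1 CPM in *Arf*-/--shSCR. Endothelial markers stayed between 19.86 and 39 CPM of RNA in all groups. Fewer cells of a type and less RNA per cell cannot be told apart in bulk libraries. The part of these other cell types in the results on the ARF partners was not tested.

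The series was made to measure translation, and mRNAs that begin with a C followed by a run of pyrimidines (5′-TOP mRNAs) are a well known class under translational control. The annotated first bases of the partner genes are therefore shown for those with a change in footprints and an entry in the RefSeq tables of GRCm38.p6. Each line gives 20 bases in 5′ to 3′ direction on the gene's strand. The capitals mark the first 5 bases, which were read for a TOP start (C and then 4 bases that are C or T). Starts are numbered by chromosome position, so the last *Ddx5* start is the most upstream on the minus strand.
*Drosha*, chr15:12824815-12824834, plus strand: ATTTCtccggtttgcctttt
*Ddx5*, first start, chr11:106788475-106788494, minus strand: ACCTCattcatttccatcgg
*Ddx5*, second start, chr11:106788888-106788907, minus strand: GTCTCcttcggttatgggcg
*Ddx5*, last start, chr11:106789166-106789185, minus strand: AGCAGaggagcacttcctcg
*E2f1*, chr2:154569407-154569426, minus strand: GGGCTgggcctcggggctcc
None of these windows held a TOP start, and neither did any of the 16 annotated starts of 8 partner genes. *Npm1*, which is on the study's list of known 5′-TOP genes, and *Myc* were not read. Among all 32851 annotated start windows read in the same way, 823 (2.51%) held one. The *Drosha* window and the first 2 of *Ddx5* have 4 pyrimidines among their first 5 bases but open with a purine. Annotated starts can lie a few bases from the start a cell uses, so the absence of these letters describes the annotation only.

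The partners spanned a wide range of expression. Per kilobase of coding sequence, which allows genes of unequal length to be compared, RNA in WT-shSCR MEFs was 420.9 ± 6.31 CPM per kb (SD, n = 2) for *Npm1* and 233.5 ± 18.9 CPM per kb (SD, n = 2) for *Ddx5*. *Ctbp1* followed with 129.5 ± 15.3, *Ubtf* with 46.51 ± 2.53 and *Huwe1* with 36.95 ± 7.11 CPM per kb (SD, n = 2 each). The replicates of *Huwe1*, *Myc*, *E2f1*, *Ctbp2* and *Drosha* overlapped from each gene to the next in that order, with means from 36.95 down to 16.88 CPM per kb, so their order is not settled by these libraries. *Ttf1* was lowest, with 3.378 ± 0.206 CPM per kb (SD, n = 2) and only 9 to 46 reads in any of the 12 libraries. By footprints the order began again with *Npm1* (1234 ± 75.9 CPM per kb) and *Ddx5* (453.4 ± 14.5 CPM per kb), but *Myc* came next with 59.41 ± 1.96 CPM per kb (SD, n = 2 each). The coding length of *Ctbp2* includes the long first exon of its retinal form RIBEYE, which lowers its value per kb where that form is not made. Reads that align to several places were not counted, and 76.8% of the 28-base windows of the *Npm1* coding sequence and 64.1% of those of *Ddx5* also occur in other annotated transcripts, nearly all processed pseudogenes. Levels of these genes are therefore understated, and so, to a smaller degree, is that of *Ttf1* (14.8% of windows). For the remaining partners the share was at most 1.1%.

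**Figure D1:**
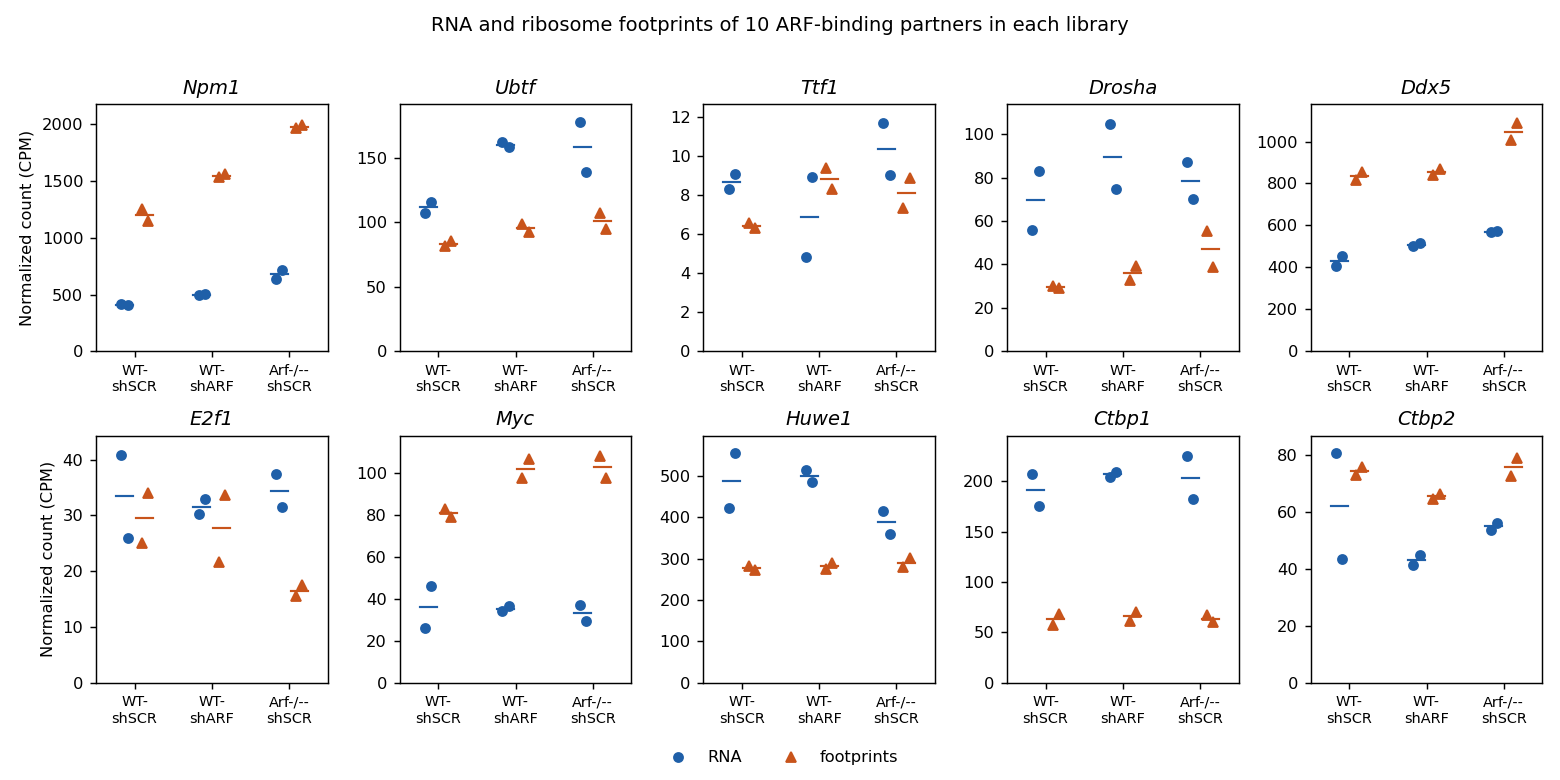
RNA (circles) and ribosome footprints (triangles) of the 10 ARF partners as normalized counts (CPM, linear axis from 0) in the 3 groups; each point is 1 library and each short line the mean of 2 replicates. *Npm1* footprints step up from 1148 to 1252 CPM in WT-shSCR to 1533 to 1563 CPM in WT-shARF and 1969 to 1993 CPM in Arf-/--shSCR without overlap, while Ctbp1 lies at about the same height in all groups.

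*Npm1*, the abundant nucleolar chaperone that anchors ARF (chr11:33152287-33163206, minus strand, GRCm38), was the partner with the smallest adjusted p. Its RNA was 413.5 and 404.8 CPM in WT-shSCR, 495.1 and 505.2 CPM in WT-shARF, and 636.7 and 718.6 CPM in *Arf*-/--shSCR. Its footprints were 1252 and 1148 CPM, 1533 and 1563 CPM, and 1969 and 1993 CPM in the same order. In both assays the 3 groups did not overlap, with *Arf*-/--shSCR highest and WT-shSCR lowest. Against WT-shSCR, *Npm1* RNA rose 1.65-fold in *Arf*-/--shSCR MEFs (log2 fold change 0.73, standard error 0.15, 95% interval 0.42 to 1.03, adjusted p = 0.00345, edgeR). Its footprints rose 1.67-fold (log2 fold change 0.74, standard error 0.07, 95% interval 0.59 to 0.88, adjusted p = 1.43e-09, edgeR). In WT-shARF MEFs the footprints rose 1.29-fold (log2 fold change 0.37, standard error 0.07, adjusted p = 0.000273, edgeR). The RNA difference there, a log2 fold change of 0.28 (95% interval 0.02 to 0.54), did not pass the test (adjusted p = 0.191, edgeR). *Arf*-/--shSCR footprints were also above those of WT-shARF (log2 fold change 0.36, standard error 0.05, adjusted p = 0.000195, edgeR). Without either single WT-shSCR library the knockout calls were lost at nearly the same size, with log2 fold changes of 0.72 and 0.74 in RNA and 0.68 and 0.81 in footprints. Those fits leave 1 WT-shSCR library, and in footprints the calls of all genes were lost with it. The loss in footprints is therefore not particular to *Npm1*. The WT-shARF footprint call held under all 10 alternatives, with adjusted p from 5.47e-08 to 0.0092 in edgeR and DESeq2.

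*Ubtf*, the HMG-box factor that opens ribosomal DNA for RNA polymerase I (chr11:102304560-102319742, minus strand), had RNA of 107.5 and 116.1 CPM in WT-shSCR, 162.3 and 158.3 CPM in WT-shARF, and 177.6 and 139.1 CPM in *Arf*-/--shSCR. Both groups with reduced or absent *Arf* by label lay above WT-shSCR and overlapped each other. The RNA rose 1.43-fold in WT-shARF (log2 fold change 0.52, standard error 0.15, adjusted p = 0.0361, edgeR). The difference in *Arf*-/--shSCR was of the same size, 0.50 (95% interval 0.13 to 0.88), and missed the threshold (adjusted p = 0.0909, edgeR). This pair of calls depended on the fit, since with all groups in one fit the knockout difference passed (adjusted p = 0.0495, edgeR) and the WT-shARF difference did not (adjusted p = 0.0669, edgeR). DESeq2 did not call it in WT-shARF either (adjusted p = 0.122), and it was lost without either WT-shARF library or WT-shSCR replicate 1 (log2 fold change 0.47 to 0.54). *Ubtf* footprints were 81.82 and 85.36 CPM, 99.1 and 92.42 CPM, and 107 and 94.78 CPM in the 3 groups in the same order. They lay above WT-shSCR in both other groups, by 0.20 and 0.29 on the log2 scale, and neither difference passed the test. *Ttf1*, which ends polymerase I transcripts and positions nucleosomes on ribosomal DNA (chr2:29060262-29087656, plus strand), was between 4.854 and 11.72 CPM in all RNAseq libraries and between 6.323 and 9.404 CPM in all ribosome profiling libraries. With so few reads its log2 fold changes had standard errors of 0.45 to 0.52 in the comparisons with WT-shSCR, and only a difference far larger than those of the other partners could have been detected.

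*Drosha*, the RNase that cuts primary microRNA transcripts (chr15:12824815-12935291, plus strand), had RNA of 56.04 and 83.03 CPM in WT-shSCR, 104.6 and 74.69 CPM in WT-shARF, and 87.14 and 69.96 CPM in *Arf*-/--shSCR. The 3 groups overlapped. Its footprints were 30.23 and 29.24 CPM, 32.91 and 39.25 CPM, and 55.55 and 38.77 CPM in the same order. Both knockout libraries lay above the controls, with 288 and 200 reads against 92 and 74, but they differed from each other more than the libraries of the other groups did. Footprints rose 1.60-fold in *Arf*-/--shSCR against WT-shSCR (log2 fold change 0.68, standard error 0.22, 95% interval 0.23 to 1.12, adjusted p = 0.0274, edgeR). The call was lost with DESeq2 (adjusted p = 0.118) and without *Arf*-/--shSCR replicate 1, where the log2 fold change was 0.40. Without either WT-shSCR library, where all genes lost their footprint calls, it was 0.66 and 0.71. *Drosha* RNA differed by 0.20 (adjusted p = 0.661, edgeR).

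*Ddx5*, a DEAD-box helicase of the Microprocessor that also acts in ribosomal RNA maturation and transcription (chr11:106780355-106789185, minus strand), had footprints of 818.5 and 856.3 CPM in WT-shSCR, 838.4 and 869.1 CPM in WT-shARF, and 1007 and 1087 CPM in *Arf*-/--shSCR. The knockout libraries lay above all others, and the other groups overlapped. Footprints rose 1.26-fold in *Arf*-/--shSCR (log2 fold change 0.33, standard error 0.08, adjusted p = 0.00185, edgeR). They also rose 1.23-fold against WT-shARF (0.30, standard error 0.06, adjusted p = 0.00653, edgeR). Against WT-shSCR the call was lost without *Arf*-/--shSCR replicate 2 (0.29). Without either WT-shSCR library, where all genes lost their footprint calls, the values were 0.31 and 0.37. *Ddx5* RNA was 406.6 and 456 CPM, 501 and 515.3 CPM, and 569 and 572.2 CPM in the same order of groups, without overlap. The RNA difference in *Arf*-/--shSCR was 0.40 (95% interval 0.10 to 0.71, adjusted p = 0.0984, edgeR) and passed only with all groups in one fit (adjusted p = 0.0493, edgeR).

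*E2f1*, the transcription factor that drives entry into S phase and itself activates *Arf* (chr2:154559407-154569892, minus strand), was the only partner with a call of lower footprints. They were 24.97 and 33.98 CPM in WT-shSCR, 21.7 and 33.64 CPM in WT-shARF, and 15.62 and 17.44 CPM in *Arf*-/--shSCR. The knockout libraries were below every other library, and the other groups overlapped. The log2 fold change against WT-shSCR was -0.81 (standard error 0.28, 95% interval -1.39 to -0.24, adjusted p = 0.0393, edgeR). It rested on 81 and 90 reads in the deeper knockout libraries against 76 and 86 in the controls. The difference was not called by DESeq2 (adjusted p = 0.123) or without a filter on low counts (adjusted p = 0.0569, edgeR). Nor was it called without *Arf*-/--shSCR replicate 1 (-0.73) or replicate 2 (-0.89). Without WT-shSCR replicate 1 or 2, where all genes lost their footprint calls, the values were -1.01 and -0.58. *E2f1* RNA was 40.89 and 25.95 CPM, 30.2 and 32.99 CPM, and 37.35 and 31.52 CPM in the same order, with all groups overlapping and a difference of 0.01 on the log2 scale (adjusted p = 0.984, edgeR).

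*Myc*, the growth-promoting transcription factor (chr15:61985391-61990374, plus strand), had footprints of 82.81 and 79.03 CPM in WT-shSCR, 97.3 and 106.3 CPM in WT-shARF, and 107.8 and 97.5 CPM in *Arf*-/--shSCR. The WT-shSCR libraries were the lowest, and the other groups overlapped. The differences of 0.34 in WT-shARF (adjusted p = 0.176, edgeR) and 0.35 in *Arf*-/--shSCR (adjusted p = 0.0949, edgeR) did not pass the test. *Myc* RNA ranged from 26.12 to 46.06 CPM over the 6 RNAseq libraries, and the WT-shSCR replicates formed both ends of that range. The log2 fold changes of its RNA were 0.01 in WT-shARF and -0.08 in *Arf*-/--shSCR.

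*Huwe1*, the large HECT-domain ubiquitin ligase whose activity ARF blocks (chrX:151800807-151935417, plus strand), had RNA of 421.8 and 554.6 CPM in WT-shSCR, 514.5 and 485.6 CPM in WT-shARF, and 416.3 and 361 CPM in *Arf*-/--shSCR. The knockout libraries were the lowest. Neither the difference from WT-shSCR (-0.33, 95% interval -0.66 to 0.01, adjusted p = 0.234, edgeR) nor that from WT-shARF (-0.37, adjusted p = 0.156, edgeR) passed the test. *Huwe1* footprints lay between 273.5 and 301.6 CPM in all 6 libraries, and the 95% interval of their log2 fold change in *Arf*-/--shSCR was -0.13 to 0.29.

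*Ctbp1* and *Ctbp2* encode related NAD(H)-binding corepressors (chr5:33247723-33274994 and chr7:132987563-133124354, both on the minus strand). *Ctbp1* RNA was 175.8 to 225.2 CPM and its footprints 57.83 to 70.4 CPM over all groups, with log2 fold changes between 0.03 and 0.10 in the comparisons with WT-shSCR. The 95% interval for its footprints in *Arf*-/--shSCR, -0.32 to 0.38, leaves out a change of the size seen for *Npm1* footprints. *Ctbp2* RNA was 80.65 and 43.46 CPM in the WT-shSCR replicates, 41.52 and 44.77 CPM in WT-shARF, and 53.82 and 56.14 CPM in *Arf*-/--shSCR. The WT-shSCR replicates thus differed from each other more than the groups did. The log2 fold change in WT-shARF, -0.56, did not pass the test (adjusted p = 0.144, edgeR). It was -0.90 with a pass without WT-shSCR replicate 2 (adjusted p = 0.00218, edgeR) and 0.00 without replicate 1. *Ctbp2* footprints were 64.74 to 79.08 CPM, and none of the comparisons passed.

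**Figure D2:**
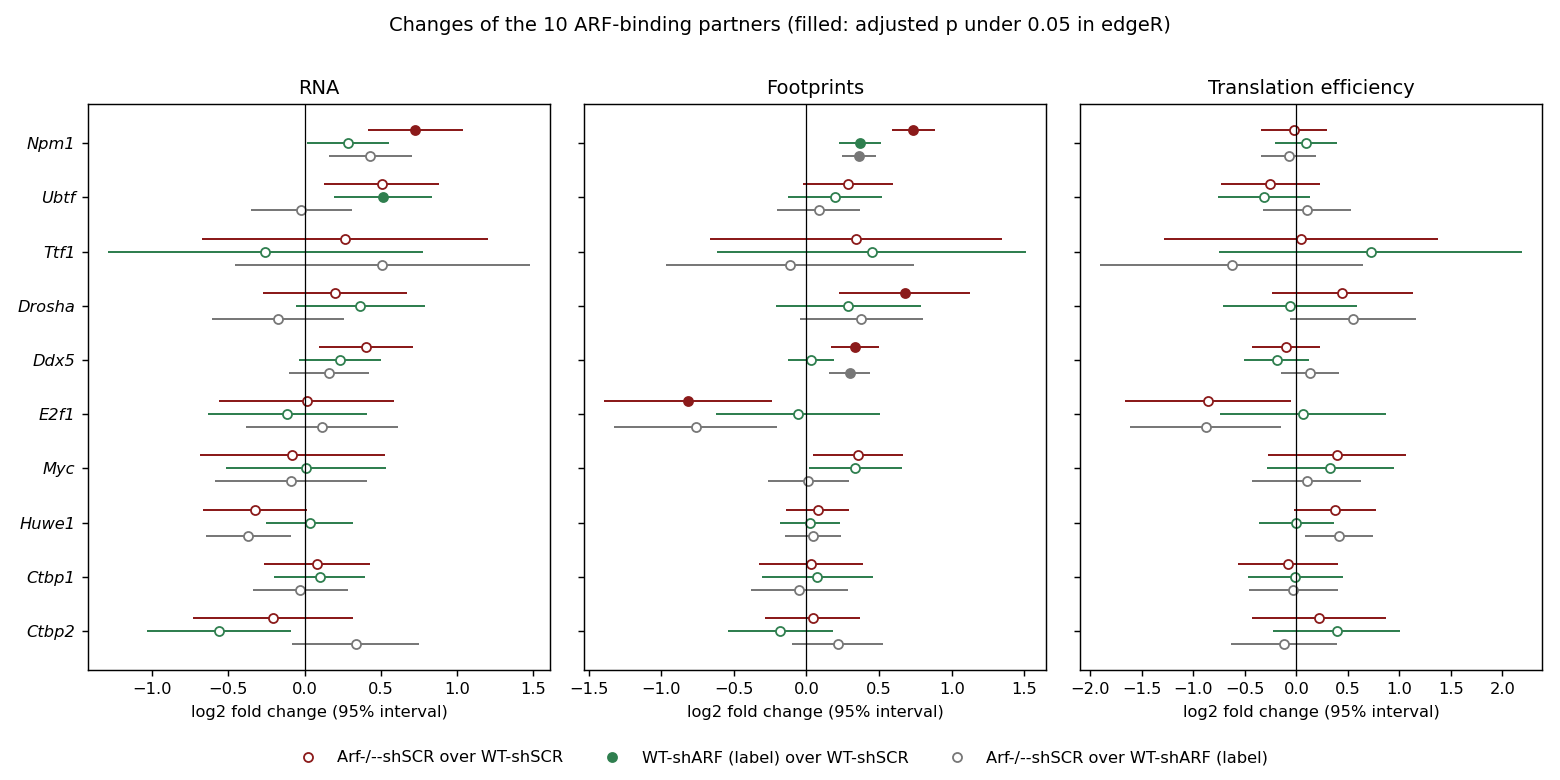
Log2 fold changes of the 10 ARF partners in RNA, footprints and TE with 95% intervals from edgeR; filled points passed an adjusted p of 0.05. In *Arf*-/--shSCR over WT-shSCR the filled points are Npm1 in RNA (0.73) and Npm1 (0.74), Drosha (0.68), Ddx5 (0.33) and E2f1 (-0.81) in footprints, and no TE point is filled.

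Counted over all partners, 1 of 10 had higher RNA in *Arf*-/--shSCR than in WT-shSCR and 0 of 10 lower, where 3.94% of the 10659 genes tested were called higher and 3.99% lower. In footprints 3 of 10 were called higher and 1 of 10 lower, against 9.57% and 8.95% of all 10737 genes. The median log2 fold change of the partners' footprints was 0.31, with 9 of 10 above 0, and that of all genes was -0.000873. TMM factors place the bulk of genes near 0 by design. All changes in RNA, footprints and TE are therefore relative, and a shift common to all mRNAs would not show. In WT-shARF 1 of 10 had higher RNA and 0 of 10 lower, against 3.11% and 4.17% of all genes, and 1 of 10 had higher footprints and 0 of 10 lower, against 5.63% and 5.5%. Median log2 fold changes there were 0.07 in RNA and 0.14 in footprints. These comparisons share their WT-shSCR libraries, so a high or low control moves both. Between *Arf*-/--shSCR and WT-shARF, no partner was called in RNA, where 1.38% of genes were called higher and 1.19% lower, and 2 were called in footprints, both higher, against 3.93% higher and 4.3% lower. At an unadjusted p under 0.05, 2 of 10 partners passed in RNA in that comparison, against 16.4% of all genes, and DESeq2 called 0 of the 9 for which it gave an adjusted p. With 10 genes, a single call moves these shares by 10 percentage points.

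Translation efficiency (TE) is the footprint level of an mRNA relative to its RNA level, and its change was tested as the interaction of assay and condition in a fit of both assays. No partner passed in *Arf*-/--shSCR against WT-shSCR, where 0.194% of all genes did, in WT-shARF against WT-shSCR, where 0.0354% did, or in *Arf*-/--shSCR against WT-shARF, where 0.043% did. At an unadjusted p under 0.05 there were 1, 0 and 2 of 10 partners in these comparisons, against 6.83%, 6.65% and 7.57% of all genes. DESeq2 also made 0 calls, but it gave an adjusted p for only 3, 3 and 8 of the 10 partners. The *E2f1* TE difference in *Arf*-/--shSCR was -0.86 (95% interval -1.65 to -0.06, adjusted p = 0.679, edgeR), and against WT-shARF it was -0.88 (adjusted p = 0.569, edgeR). *Huwe1* TE differed by 0.37 (95% interval -0.02 to 0.76, adjusted p = 0.757, edgeR) and 0.41 (adjusted p = 0.502, edgeR) in the same comparisons. *Drosha* TE differed from WT-shSCR by 0.45 in *Arf*-/--shSCR, with a wide 95% interval of -0.23 to 1.12. For *Npm1* the interval was -0.33 to 0.29 around -0.02, beside log2 rises of 0.73 in RNA and 0.74 in footprints.

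The partners differed far more from each other in footprints per RNA than any of them did between groups. In WT-shSCR, the log2 ratio of footprint CPM to RNA CPM was 1.55 for *Npm1*, which put it at percentile 97.3 of the 8682 genes with at least 10 reads in each of the 4 libraries. *Myc* stood at 1.16 (percentile 93.4) and *Ddx5* at 0.96 (percentile 89.6). At the other end were *Ctbp1* with -1.60 (percentile 4.08), *Drosha* with -1.23 (percentile 7.84) and *Huwe1* with -0.81 (percentile 16.6). *Ctbp2* (0.26), *E2f1* (-0.18), *Ubtf* (-0.42) and *Ttf1* (-0.43) lay between percentiles 30.6 and 64.4. The median of all genes was -0.0405 with an SD of 0.935 across genes. The paralogs *Ctbp1* and *Ctbp2* were thus at opposite sides of that median, and the ranges over all pairings of the 2 replicates of each assay, -1.85 to -1.36 and -0.15 to 0.80, did not overlap. *Npm1* (1.47 to 1.63) and *Myc* (0.78 to 1.66) did overlap. In *Arf*-/--shSCR the *E2f1* ratio was -1.06 (range -1.26 to -0.85), below its range of -0.71 to 0.39 in WT-shSCR. *Huwe1* stood at -0.42 (-0.57 to -0.26), just above its range of -1.02 to -0.58 in WT-shSCR. In WT-shARF, *Ddx5* (0.702 to 0.795) lay below its WT-shSCR range of 0.844 to 1.07. *Ubtf* there (-0.813 to -0.676) also lay below its own (-0.505 to -0.333), and *Ttf1* (-0.108 to 0.954) above (-0.522 to -0.342). None of these differences passed the TE test. How often ranges lie apart over all genes was not counted.

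**Figure D3:**
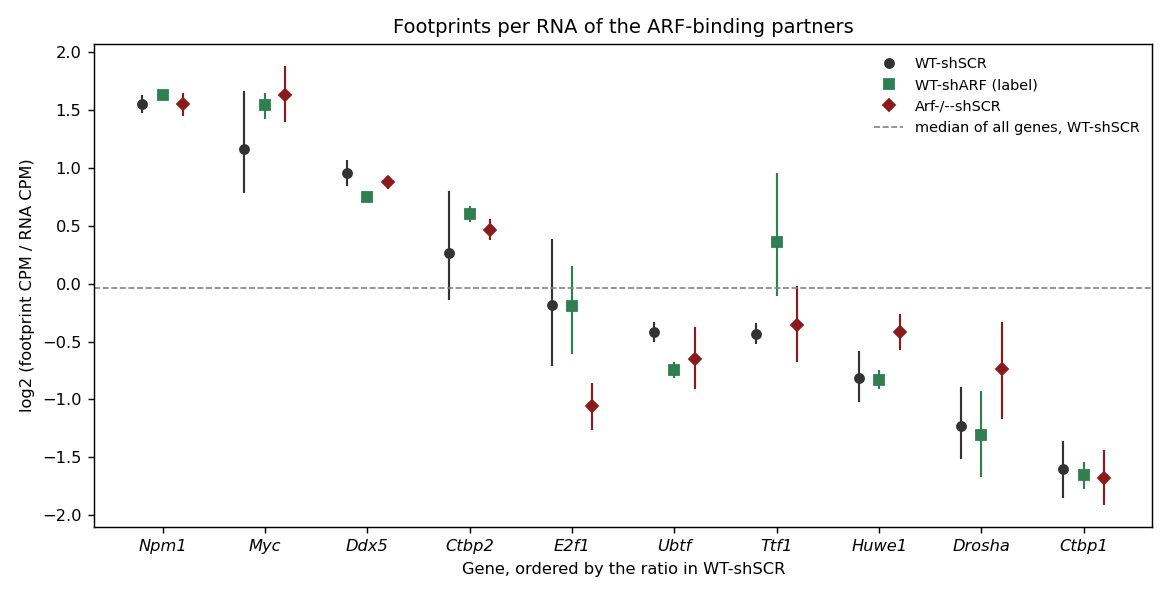
Log2 ratio of footprint CPM to RNA CPM for each ARF partner in the 3 groups; symbols are ratios of group means and vertical lines the range over all pairings of 2 RNAseq with 2 ribosome profiling replicates, with the median of all genes in WT-shSCR dashed. *Npm1*, *Myc* and *Ddx5* are high and *Drosha* and *Ctbp1* low in every group. *E2f1* in Arf-/--shSCR (-1.06) lies below its WT-shSCR range, but its TE difference did not pass the test.

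The counts of the lists below stand against the shares of all genes given above, which in *Arf*-/--shSCR were 3.94% higher and 3.99% lower in RNA and 9.57% and 8.95% in footprints. Around *Npm1*, *Ubtf* and *Ttf1*, the listed nucleolar genes that passed the test in *Arf*-/--shSCR all rose. Of 10 tested nucleolar relatives and partners of NPM1, 3 rose in RNA and 8 in footprints in *Arf*-/--shSCR, and none fell. The largest footprint rises were those of *Ncl*, which encodes nucleolin (log2 fold change 0.81, standard error 0.07), *Npm3*, a paralog of *Npm1* (0.68, standard error 0.23), and *Rpl5*, a ribosomal protein that binds MDM2 (0.68, standard error 0.08). In WT-shARF 5 of 10 rose in footprints. In RNA there, *Ncl* rose (0.55, standard error 0.13) and *Senp3*, a nucleolar SUMO protease, fell (-0.54, standard error 0.15). Of 16 genes of the polymerase I machinery, 2 rose in RNA in *Arf*-/--shSCR, *Smarca5* (0.79) and *Polr1b* (0.65). The 4 that rose in footprints were *Polr1a*, *Polr1c*, *Znrd1* and *Taf1d*, with log2 fold changes of 0.42 to 1.28, and none fell. The median log2 fold change of that list was 0.47 in RNA and 0.39 in footprints. In WT-shARF 1 rose in RNA (*Smarca5*) and 2 in footprints (*Znrd1* and *Taf1d*).

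Around *Drosha* and *Ddx5*, none of 8 other genes of microRNA maturation passed in RNA or footprints in *Arf*-/--shSCR, where the medians were -0.04 and 0.18. *Dicer1*, the RNase of the next cutting step, rose in the RNA of WT-shARF (0.62, standard error 0.19, adjusted p = 0.0448, edgeR).

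Of 18 E2F target genes of DNA replication and the cell cycle, 10 rose in RNA and 15 in footprints in *Arf*-/--shSCR, and none fell. Footprint rises included those of *Ccna2*, a cyclin of S phase (1.28), and *Tk1*, a thymidine kinase (1.04), and the list medians were 0.70 in RNA and 0.71 in footprints. In WT-shARF 9 rose in RNA and 10 in footprints, with medians of 0.52 in each, while *E2f1* footprints there differed by -0.06 (adjusted p = 0.939, edgeR). Of 11 tested members of the E2F and pocket protein family itself, none passed in RNA in *Arf*-/--shSCR. In footprints *Tfdp1*, the dimerization partner of E2F proteins, rose (0.71, standard error 0.16). Footprints of *Rb1*, the retinoblastoma protein that holds E2F in check, fell (-1.42, standard error 0.36). Each is 1 of 11, a share near the 9.57% of all genes called higher and the 8.95% called lower. *Tfdp1* and *Rb1* footprints were also called in WT-shARF (0.58 and -1.15), where *Tfdp1* RNA also rose (0.64).

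Around *Myc*, 6 of 16 target genes rose in RNA and 11 in footprints in *Arf*-/--shSCR, and *Ccnd2*, a D-type cyclin, fell in both (-1.02 and -0.93). *Nop58*, a protein of box C/D ribonucleoproteins, rose most in RNA (1.23) and *Ncl* in footprints. This list shares *Ncl*, *Fbl*, *Mybbp1a* and *Polr1b* with the nucleolar and polymerase I lists, so their counts are not separate. In WT-shARF 3 rose in RNA and 5 in footprints, and *Ccnd2* footprints fell. Of the MYC dimerization network none of 9 tested genes passed in RNA. In footprints 1 of 10, *Mxd4*, an antagonist of MYC, fell (-1.26, standard error 0.33), a share near the 8.95% of all genes called lower, and none passed in WT-shARF.

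The genes around HUWE1 and the CtBP proteins moved little or in mixed directions in *Arf*-/--shSCR. Of 7 tested HUWE1 substrates, 1, *Trp53*, rose in footprints in *Arf*-/--shSCR (0.42, standard error 0.11), beside 9.57% of all genes. None of the substrates passed in RNA or in WT-shARF. None of 10 other components of the CtBP complex passed in either assay in the comparisons with WT-shSCR. Of 7 genes reported as repressed by CtBP, 5 were tested in RNA and 4 in footprints in *Arf*-/--shSCR. *Dsg2* fell in RNA (-0.99), and *Perp* (-2.86), *Pmaip1* (-1.81) and *Bax* (-0.46) fell in footprints. All 4 tested in footprints were thus called, 3 lower and 1 (*Krt8*) higher. In WT-shARF *Perp*, *Bax* and *Dsg2* fell in RNA, of 4 tested, and *Perp* and *Pmaip1* in footprints, of 3 tested. *Perp*, *Pmaip1* and *Bax* are also targets of p53. *Krt8*, an epithelial keratin, rose in *Arf*-/--shSCR by 4.53 in RNA and 4.11 in footprints. It is also on the epithelial and mesothelial marker list, of which 4 of 7 tested genes rose in RNA and 6 of 7 in footprints.

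Other proteins reported to bind ARF formed a further list. Of its 22 genes tested in footprints, 7 rose in *Arf*-/--shSCR, led by *Foxm1* (1.39), a cell-cycle transcription factor, *Atr* (1.16), a checkpoint kinase, and *Tfdp1* (0.71). *Bcl6*, a transcriptional repressor, fell (-1.60). *Mdm2*, the p53 ligase and main target of ARF, fell in RNA (-1.16) and footprints (-1.35) in *Arf*-/--shSCR and also in WT-shARF (-0.74 and -0.71). *Mdm2* is itself a p53 target gene. In RNA, 2 of 21 rose in *Arf*-/--shSCR, *Foxm1* (0.81) and *Top1* (0.78), the topoisomerase that ARF is reported to stimulate. In WT-shARF 2 rose and 2 fell in RNA, and 4 rose and 1 fell in footprints. Of 8 transcription regulators of the *Arf* locus, none passed in *Arf*-/--shSCR RNA. In footprints *Ezh2*, a Polycomb methyltransferase, rose (0.63) and *Foxo3* fell (-0.88). Each is 1 of 8, beside 9.57% of all genes called higher and 8.95% lower. *Ezh2* RNA rose in WT-shARF (0.67). None of these 12 lists held a TE call in any of the 3 comparisons. All calls in the lists were made with edgeR over all genes tested. In *Arf*-/--shSCR against WT-shSCR, 9 of 12 macrophage markers fell in RNA and 11 of 11 in footprints. Any link between these falls and the calls in the lists was not tested.

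**Figure D4:**
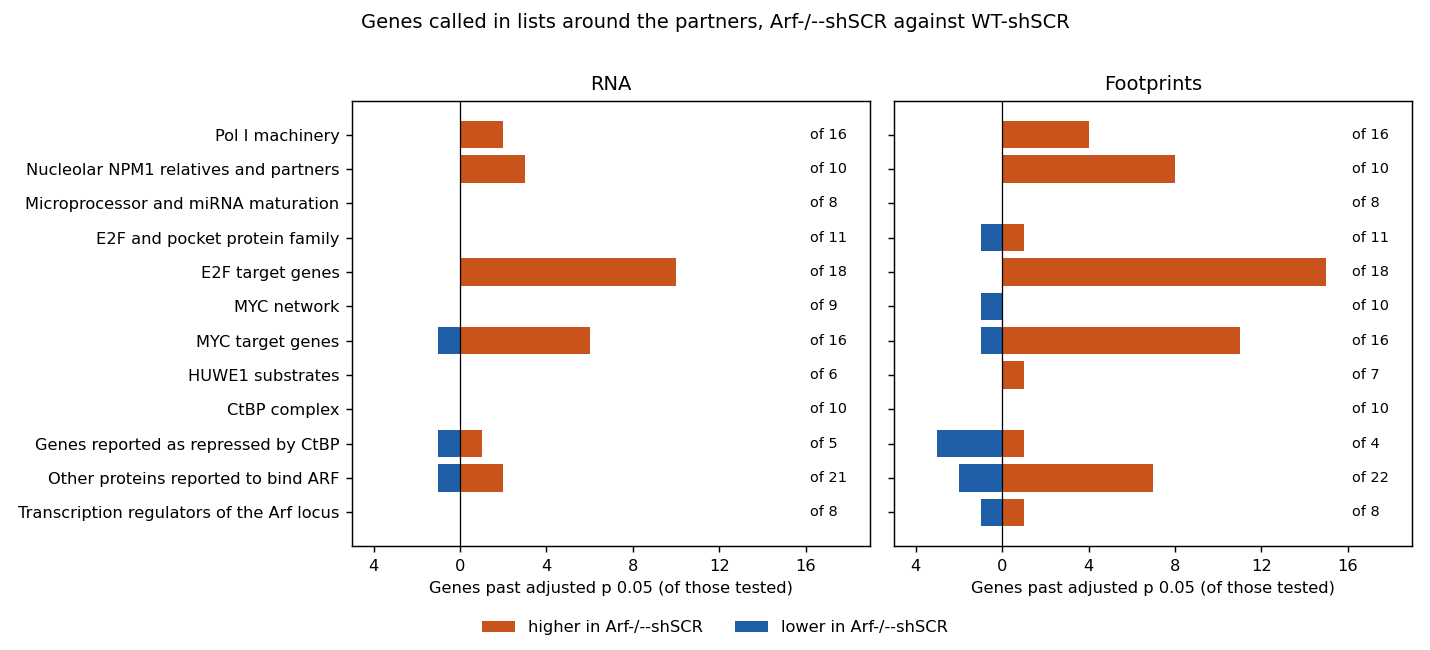
Number of genes called higher (right of 0) or lower (left of 0) in *Arf*-/--shSCR against WT-shSCR in each of 12 gene lists, for RNA and footprints, with the number tested at the right. The longest bars are the E2F target genes, with 10 higher of 18 in RNA and 15 in footprints, and the CtBP complex and microRNA maturation lists have no bar.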

How the data were processed

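RNA and ribosome footprints (RNase T1) of MEFs were sequenced by the authors as fragments of equal length range. They removed adapters, barcodes, rRNA and noncoding RNA reads, used TopHat to align to mm10 and HTSeq to count the reads of each coding sequence, using UMI-tools only to take off the molecular identifiers as far as is stated. The authors deposited the raw counts. Alignments that were not unique, 79.22% to 81.38% of those of RNAseq and 46.34% to 52.92% of those of ribosome profiling, were not counted.

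edgeR 4.0.16 in R 4.3.3 tested the counts of all genes with TMM factors, filterByExpr and the quasi-likelihood F test, over the 4 libraries of an assay or, for TE, over 8 libraries with an interaction of assay and condition. A call is an adjusted p below 0.05 (Benjamini-Hochberg, over all genes tested). All 10 partners were tested in the fits reported. *Ttf1*, with 9 reads in a WT-shARF RNAseq library, dropped out of the RNA and TE fits of WT-shARF when at least 10 counts were required. The smallest exact permutation p for 2 against 2 libraries is 0.33, so none is given. The fits were tested on simulated data. Alternatives were DESeq2 1.42.0, one fit of all groups, RLE factors, no filter, a minimum of 10 counts per library, a replicate block, a culture block and leaving out each library. Replicates differed beyond counting error (chi-square per gene 3.77 to 6.97). Positions are from GENCODE M21 on GRCm38 and start sequences from RefSeq.

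The partners and lists were chosen with earlier results of these data known. All partners and *Cdkn2a* are named, and from each list at most the 3 largest rises and falls past the threshold per comparison and assay. List genes named beyond that were chosen after their values were seen.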

Additional observations from a re-analysis of the deposited data

Results flagged for a closer look

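*Npm1* and *Ddx5* footprints differed between the groups with *Arf* knocked out and with the hairpin against ARF, each set against the same WT-shSCR controls. The direct comparison of *Arf*-/--shSCR with WT-shARF gave a log2 fold change of 0.36 for *Npm1* (adjusted p = 0.000195, edgeR) and 0.30 for *Ddx5* (adjusted p = 0.00653, edgeR), with both knockout libraries above both WT-shARF libraries. Neither call held without either WT-shARF library, where the values were 0.35 and 0.38 for *Npm1* and 0.27 and 0.33 for *Ddx5*. Those fits leave 1 library in that group, and hardly any gene of the whole genome was called in them. The loss is therefore not particular to *Npm1* and *Ddx5*.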

How the results depend on the processing

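Deviations of same-numbered libraries were hardly correlated (r -0.0825 to 0.053 over 8223 genes). Counting error also lowers such an r, so it does not tell whether these libraries shared a culture or day. The fit with a replicate block left every count of called partners as it was, for example 4 in the footprints of *Arf*-/--shSCR and 0 in TE. No TE call of a partner arose under any alternative run (DESeq2 gave an adjusted p for 3, 3 and 8 of 10), and the WT-shARF footprint count stayed at 1 under all of them. The count in *Arf*-/--shSCR RNA went from 1 to 3 with all groups in one fit. In its footprints it went from 4 to 2 with DESeq2 and fell without any single library. In WT-shARF RNA it went from 1 to 0 with DESeq2 and with all groups in one fit. Between *Arf*-/--shSCR and WT-shARF it went in RNA from 0 to 1 without a filter. Each of these counts, and the one in footprints of that comparison, also moved when certain single libraries were left out. Leaving out a library leaves its group with 1, which is then assumed to vary like the others, and the number of genes called among all genes also moved, from 1988 to between 0 and 1193 in the *Arf*-/--shSCR footprints and from 845 to between 222 and 790 in its RNA. DESeq2 called 1305 and 467 there. Over all genes WT-shARF RNA had 765 calls (318 with DESeq2), and TE calls numbered 22, 4 and 5 in the 3 comparisons, with 25 to 123, 0 to 50 and 5 to 81 under other settings and 6 to 51, 7 to 24 and 1 to 125 without a library. Depth limited *Ttf1*, with 9 to 46 reads per library and the widest intervals. The causes of these shifts were not tested.

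Among the partners' single values, 804 kept their direction and side of the threshold, 19 kept their direction with no adjusted p from DESeq2, 26 lost a call, 8 gained one and 69 turned sign, each of the latter without a call. In *Arf*-/--shSCR the TE of *Npm1* turned to 0.0095 with DESeq2, 0.0089 with RLE factors, 0.11 without a filter and 0.043 with all groups in one fit, and that of *Ddx5* and *Ctbp1* to 0.027 and 0.048 without a filter. In WT-shARF *Myc* RNA turned to -0.014 with DESeq2 and -0.015 with a replicate block, and *Huwe1* TE to -0.011 with at least 10 counts in every library, -0.0071 with a replicate block and -0.0094 with a culture block. Between *Arf*-/--shSCR and WT-shARF, *Ctbp1* TE turned to 0.012 without a filter. Leaving out a library gave these ranges. In *Arf*-/--shSCR differences that turned were, in RNA, *Drosha* (-0.079 to 0.49), *E2f1* (-0.24 to 0.41), *Myc* (-0.47 to 0.35), *Ctbp1* (-0.076 to 0.23) and *Ctbp2* (-0.55 to 0.34). In footprints they were *Ctbp1* (-0.075 to 0.16) and *Ctbp2* (-0.012 to 0.11). In TE they were *Npm1* (-0.11 to 0.10), *Ttf1* (-0.24 to 0.37), *Ddx5* (-0.14 to 0.022), *Myc* (-0.045 to 0.90), *Ctbp1* (-0.26 to 0.16) and *Ctbp2* (-0.28 to 0.60). In WT-shARF differences that turned were, in RNA, *Ttf1* (-0.83 to 0.052), *E2f1* (-0.37 to 0.30), *Myc* (-0.38 to 0.43), *Huwe1* (-0.15 to 0.24), *Ctbp1* (-0.013 to 0.24) and *Ctbp2* (-0.90 to 0.0011). In footprints they were *Ddx5* (-0.0055 to 0.064), *E2f1* (-0.44 to 0.21), *Huwe1* (-0.021 to 0.068) and *Ctbp1* (-0.046 to 0.20). In TE they were *Drosha* (-0.48 to 0.31), *E2f1* (-0.53 to 0.52), *Myc* (-0.15 to 0.77), *Huwe1* (-0.26 to 0.22), *Ctbp1* (-0.26 to 0.19) and *Ctbp2* (-0.18 to 0.72). Between *Arf*-/--shSCR and WT-shARF differences that turned were, in RNA, *Ubtf* (-0.20 to 0.14), *Drosha* (-0.42 to 0.069), *E2f1* (-0.013 to 0.22), *Myc* (-0.27 to 0.060) and *Ctbp1* (-0.18 to 0.12). In footprints they were *Ubtf* (-0.010 to 0.17), *Ttf1* (-0.26 to 0.020), *Myc* (-0.065 to 0.082), *Huwe1* (-0.0090 to 0.10) and *Ctbp1* (-0.14 to 0.058). In TE they were *Npm1* (-0.15 to 0.058) and *Ctbp1* (-0.096 to 0.080).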
